A study of Homo sapiens with 14 samples.

Results

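The genes described here encode 10 proteins of the inner kinetochore: CENPN, CENPL, CENPM, CENPH, CENPK, CENPI, CENPW, CENPX, CENPP and CENPQ. They were found by symbol among the 62703 genes of the deposited count table, and each symbol matched 1 gene. The list was drawn up with results of these libraries known, because CENPN responded to the inhibitor in different directions in 2 cell lines. The values of the 10 genes under the inhibitor, and the CENPN level in untreated cells, are therefore given as a description without a test.

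Transcripts were counted in 3 human cell lines derived from prostate cancer (LNCaP, 22Rv1, PC3) after growth for 3 days in 1.5 µM SEL120-34A or in its vehicle DMSO. SEL120-34A blocks CDK8 and CDK19, the paralogous kinases of the Mediator complex, which relays signals from transcription factors to RNA polymerase. Each arm of LNCaP and of 22Rv1 held 3 libraries, and each PC3 arm held 1, so no PC3 difference could be tested. Each line is 1 established culture model. The labels number the libraries of an arm without saying whether they came from separate cultures, while the methods of the study call replicates biological in general terms. If the cultures were not separate, the p-values measure only the spread between these libraries.

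The centromere is marked by nucleosomes that carry the histone variant CENP-A. The proteins of the constitutive centromere-associated network sit on that chromatin through the whole cell cycle and form the platform on which the outer, microtubule-binding kinetochore is built in mitosis. CENP-N reads the CENP-A nucleosome directly and pairs with CENP-L, CENP-H, -I, -K and -M form one sub-complex, CENP-W and CENP-X are histone-fold proteins of the CENP-T-W-S-X complex, and CENP-P and CENP-Q belong to the CENP-O-P-Q-U-R complex.

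Promoters are shown for CENPN and CENPX, whose mean levels moved in opposite directions in LNCaP and 22Rv1. CENPK is shown as a member with the same CCAAT letters and no such pattern. The CENPM means also moved in opposite directions (log2 changes -0.14 and 0.21, with overlapping arms), but no promoter was matched for CENPM. RefSeq promoters on GRCh38.p14, from 250 bases before to 50 bases after the annotated start, were matched for 7 of the 10 genes (CENPN, CENPK, CENPI, CENPW, CENPX, CENPP and CENPQ). The letters searched on both strands were TTTGAA (the cell cycle homology region, CHR), CCAAT (the NF-Y box) and GCGGGAA (an E2F site), and no search word overlapped another in these sequences. Matches are in capitals and read 5′ to 3′ on the strand of the gene.
CENPN (chr16:81006964-81007263, plus strand): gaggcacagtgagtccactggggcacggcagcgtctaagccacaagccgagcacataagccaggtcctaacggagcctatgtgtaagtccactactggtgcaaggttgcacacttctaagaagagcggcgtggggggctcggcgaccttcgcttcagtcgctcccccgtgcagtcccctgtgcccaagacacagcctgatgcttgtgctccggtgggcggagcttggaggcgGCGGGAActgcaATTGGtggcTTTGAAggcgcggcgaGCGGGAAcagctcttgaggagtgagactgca
CENPX (chr17:82022829-82023128, minus strand): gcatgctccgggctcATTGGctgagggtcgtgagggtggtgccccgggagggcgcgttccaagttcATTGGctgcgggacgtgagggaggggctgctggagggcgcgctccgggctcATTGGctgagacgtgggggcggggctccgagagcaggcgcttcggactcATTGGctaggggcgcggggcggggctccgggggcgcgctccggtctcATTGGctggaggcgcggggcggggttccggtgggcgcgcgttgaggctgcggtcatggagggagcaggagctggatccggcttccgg
CENPK (chr5:65563119-65563418, minus strand): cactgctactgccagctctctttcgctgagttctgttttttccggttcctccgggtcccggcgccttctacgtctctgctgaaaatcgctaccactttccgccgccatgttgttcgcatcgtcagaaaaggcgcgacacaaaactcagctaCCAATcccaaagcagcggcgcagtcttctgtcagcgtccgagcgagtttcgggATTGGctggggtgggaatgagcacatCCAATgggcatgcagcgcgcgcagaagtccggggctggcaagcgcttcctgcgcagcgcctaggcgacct
The CENPN window held all 3 kinds of letters close to its start. Counted from the start base as 0, its CCAAT box began at -6, its CHR at 3 and its E2F letters at -18 and 19. The CENPX window held 5 CCAAT boxes, each on the opposite strand (ATTGG), at -235, -184, -133, -84 and -37, and neither of the other words. CENPK had 3 CCAAT boxes, CENPW 2 and CENPQ 1, while none of the words was found in the CENPI window. Of the 3 windows listed for CENPP, 1 held a CCAAT box. The CENPI window (chrX:101100808-101101107) lay inside the gene, whose first base in GENCODE is 101098188. The CENPP window with the box (chr9:92600007-92600306) also lay inside its gene, which begins at 92325953. Neither window describes the sequence at that first base. Among 35116 promoter windows of the same length, 15.2% held the CHR letters, 34.6% a CCAAT box and 6.55% the E2F letters. Among the windows of the 7 matched genes, only that of CENPN held CHR or E2F letters. A match of letters is a description and does not show that a factor binds there.

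**Figure D1:**
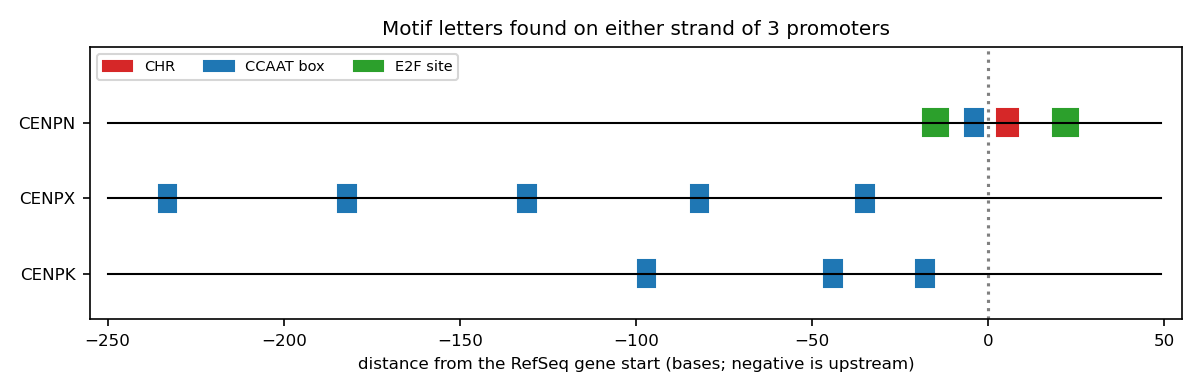
Position of the CHR, CCAAT and E2F letters (coloured blocks) in the promoter windows of CENPN, CENPX and CENPK. The x axis is the distance in bases from the RefSeq start, shown by the dotted line. The 4 blocks of CENPN lie from -18 to 25 bases of its start, and the 5 blocks of CENPX begin between -235 and -37.

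Total counts per library were 246063 to 909176, and the 22Rv1 SEL120-34A libraries (246063 to 368778) were all shallower than their DMSO controls (476455 to 777207). Levels are given as CPM, counts scaled to a common library size with TMM factors; 3 counts correspond to 3.27 CPM in the deepest and 12.9 CPM in the shallowest library. Each count comes from the 3′ end of a transcript and is not divided by gene length, so levels are compared between libraries and not between genes. The line labels were checked with markers. KLK3, which encodes prostate-specific antigen, was at 1039 to 1369 CPM in LNCaP DMSO and at 237.8 to 390.7 CPM in LNCaP SEL120-34A, against 13.7 to 31.8 CPM in 22Rv1 DMSO. PC3 had 7 and 6 KLK3 counts, and its VIM and CD44 sum was 1517 CPM (DMSO) and 1373 (SEL120-34A) against 18.3 to 52.4 elsewhere. Of 6 markers of stromal, immune and endothelial cells, COL1A2, DCN and PTPRC were at 0 in every library, and the sum of all 6 was 0 to 18.3 CPM in the LNCaP and 22Rv1 libraries. In PC3 that sum was 96.9 CPM in DMSO and 92.9 CPM in SEL120-34A, of which COL1A1, a collagen gene, made up 92.5 and 85.9 CPM.

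CENPN (ENSG00000166451.14, GRCh38 chromosome 16, 81006552 to 81033114, plus strand) was lower with the inhibitor in LNCaP and higher in 22Rv1. In LNCaP the DMSO libraries had 208.5, 199 and 154 CPM and the SEL120-34A libraries 85.8, 78.6 and 99.3 CPM. All treated libraries lay below all controls, by 2.05-fold in the edgeR fit (log2 fold change -1.04 ± 0.20 SE, 95% interval -1.44 to -0.63). In 22Rv1 the DMSO libraries had 74.6, 44.9 and 48.9 CPM and the SEL120-34A libraries 116, 94.4 and 71.3 CPM. Here the means moved the other way, but the lowest treated library lay under the highest control (log2 fold change 0.78 ± 0.24 SE, 95% interval 0.29 to 1.26, 1.72-fold). The difference between the changes, LNCaP minus 22Rv1, was -1.81 ± 0.31 (SE) on the log2 scale, or 3.52-fold. These values rest on 148, 76 and 110 counts against 22, 29 and 47 in LNCaP, and on 38, 24 and 41 counts against 42, 22 and 25 in 22Rv1.

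The order of the CENPN levels put LNCaP DMSO first, at 187 ± 29.2 CPM (SD, n = 3). LNCaP SEL120-34A (87.9 ± 10.5) and 22Rv1 SEL120-34A (93.8 ± 22.2) followed and overlapped each other. 22Rv1 DMSO was lower, at 56.1 ± 16.1 CPM (SD, n = 3), below every LNCaP library and overlapping the treated 22Rv1 libraries. In untreated cells the 2 lines thus differed by -1.75 ± 0.20 (SE) on the log2 scale, 22Rv1 minus LNCaP, or 3.37-fold, while the treated libraries of the 2 lines shared a range. The same DMSO libraries enter this difference and the inhibitor responses. PC3 had the lowest CENPN of the 3 lines, 9.80 CPM (9 counts) in DMSO and 5.26 CPM (3 counts) in SEL120-34A. Its ratio of 0.537 had a 95% counting interval of 0.0935 to 2.15, which covers a change in either direction.

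CENPL (chromosome 1, 173799550 to 173824883), the binding partner of CENP-N, was too low for the test. LNCaP had 13, 7 and 16 counts in DMSO and 2, 5 and 7 in SEL120-34A. 22Rv1 had 4, 5 and 19 counts in DMSO and 3, 2 and 3 in SEL120-34A. On the CPM scale (19.7 ± 2.34 to 12.04 ± 3.73 in LNCaP, SD, n = 3) the LNCaP arms did not overlap, while the 22Rv1 arms did. PC3 had the highest CENPL, 41.4 CPM (38 counts) in DMSO and 38.6 CPM (22 counts) in SEL120-34A, so PC3 combined the lowest CENPN with the highest CENPL of the 3 lines.

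**Figure D2:**
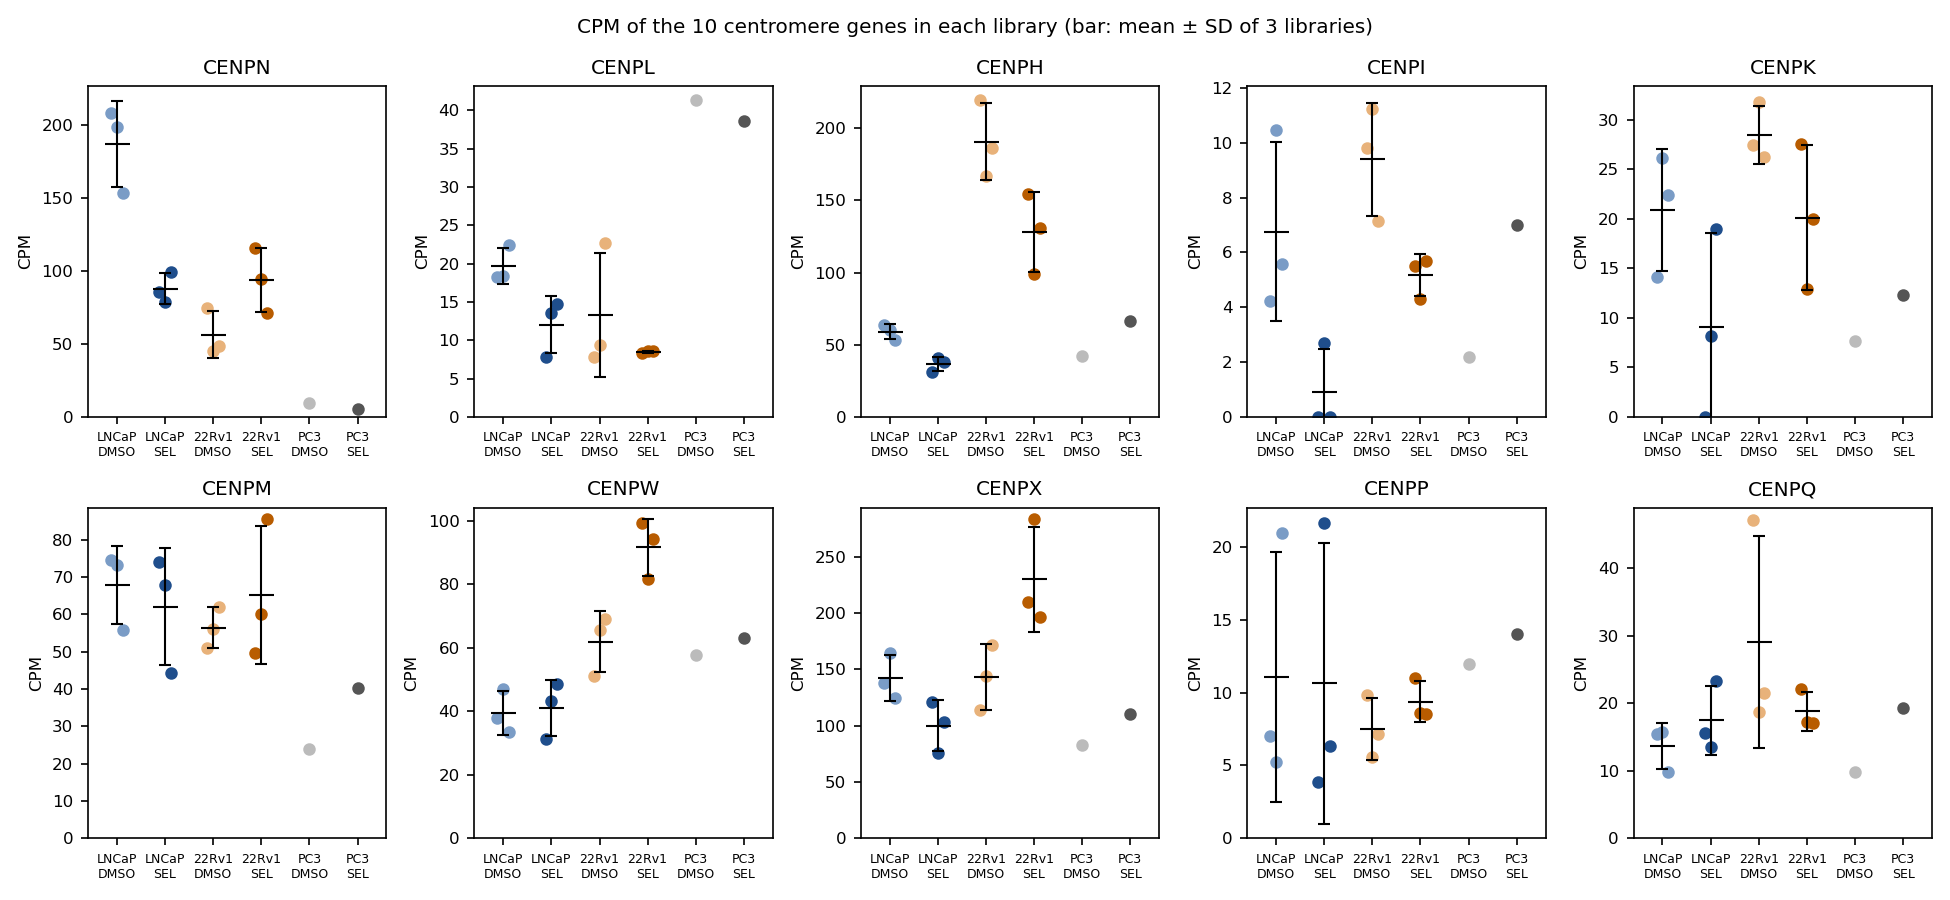
CPM of each of the 10 genes in every library, by cell line and treatment (SEL, SEL120-34A). Points are libraries, and bars are the mean ± SD of 3 libraries, cut at 0 where the SD is larger than the mean. CENPN lies at 154 to 208.5 CPM in LNCaP DMSO and at 78.6 to 99.3 CPM in LNCaP SEL120-34A, and CENPH in 22Rv1 DMSO (167 to 220 CPM) lies above every LNCaP and PC3 library.

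In the CENP-H-I-K-M sub-complex, CENPH was lower with SEL120-34A in both lines. CENPH (chromosome 5, 69189574 to 69210357) had 63.4, 60.2 and 53.1 CPM in LNCaP DMSO and 31.2, 40.7 and 38.0 CPM in LNCaP SEL120-34A. In 22Rv1 it had 220, 167 and 186 CPM in DMSO and 154, 98.7 and 131 CPM in SEL120-34A. In each line every treated library lay below every control, by -0.62 ± 0.26 (SE) on the log2 scale in LNCaP and -0.53 ± 0.18 in 22Rv1. The difference between these changes was -0.10 ± 0.32 (95% interval -0.74 to 0.54), and unequal responses inside this interval were not detectable at this depth. In PC3 the CENPH values were 42.5 CPM in DMSO and 66.6 CPM in SEL120-34A (ratio 1.57, 95% counting interval 0.977 to 2.52).

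CENPK (chromosome 5, 65517766 to 65563168), a partner of CENP-H in the same sub-complex, was near the detection limit. Its LNCaP values were 14.1, 26.2 and 22.4 CPM in DMSO and 0, 8.13 and 19.0 CPM in SEL120-34A; the count of 0 allows up to 11.7 CPM in that library. Its 22Rv1 values were 27.5, 31.8 and 26.2 CPM in DMSO and 27.6, 12.9 and 19.97 CPM in SEL120-34A. The arms overlapped in both lines, with log2 changes of -0.85 ± 0.51 (SE) in LNCaP and -0.41 ± 0.43 in 22Rv1. CENPK entered the test because it reached the filter, 22.5 CPM, in 5 of the 12 libraries, and 4 of these were controls. Without LNCaP SEL120-34A replicate 3 its LNCaP change was -1.98.

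CENPM (chromosome 22, 41938737 to 41947152), which resembles a small GTPase and joins the same sub-complex, overlapped between the arms of both lines. It had 74.7, 73.3 and 55.9 CPM in LNCaP DMSO and 74.1, 67.8 and 44.4 CPM in LNCaP SEL120-34A (log2 change -0.14 ± 0.25 SE, 95% interval -0.65 to 0.37). In 22Rv1 it had 51.0, 56.2 and 62.0 CPM in DMSO and 49.6, 60.1 and 85.6 CPM in SEL120-34A (0.21 ± 0.26, interval -0.32 to 0.74). CENPI (chromosome X, 101098188 to 101166126), the fourth subunit, had 3, 4 and 4 counts in LNCaP DMSO and 0, 1 and 0 in LNCaP SEL120-34A. In 22Rv1 it had 5, 6 and 6 counts in DMSO and 2, 1 and 2 in SEL120-34A, and at these counts no change was estimated. In PC3, CENPM was at 23.95 and 40.3 CPM, CENPK at 7.62 and 12.3 CPM and CENPI at 2.18 and 7.01 CPM in DMSO and SEL120-34A respectively, and each counting interval of the ratio included 1.

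Of the histone-fold proteins, CENPX followed CENPN in direction. CENPX (chromosome 17, 82018702 to 82024107), which also works with the FANCM repair translocase, had 138, 165 and 124 CPM in LNCaP DMSO and 121, 75.9 and 103.5 CPM in LNCaP SEL120-34A. In 22Rv1 it had 114, 144 and 172 CPM in DMSO and 209.5, 283 and 197 CPM in SEL120-34A. The arms overlapped in neither line. The treated libraries were lower in LNCaP (log2 change -0.48 ± 0.20 SE) and higher in 22Rv1 (0.64 ± 0.18), a difference of -1.12 ± 0.27 (95% interval -1.67 to -0.57). PC3 had 82.7 CPM in DMSO and 110.5 CPM in SEL120-34A (ratio 1.34, 95% counting interval 0.941 to 1.89). FANCM and FAAP24, its repair partners, were too low to be tested.

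CENPW (chromosome 6, 126340115 to 126348875), the histone-fold partner of CENP-T, was higher with SEL120-34A in 22Rv1 and overlapped in LNCaP. LNCaP had 38.0, 47.1 and 33.6 CPM in DMSO and 31.2, 43.4 and 48.6 CPM in SEL120-34A (log2 change 0.17 ± 0.28 SE). In 22Rv1 it had 51.0, 65.5 and 69.2 CPM in DMSO and 99.2, 81.6 and 94.1 CPM in SEL120-34A, where all treated libraries lay above all controls (0.57 ± 0.23). The difference between lines was -0.40 ± 0.36, with an interval of -1.13 to 0.33. PC3 had 57.7 and 63.1 CPM.

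CENPP and CENPQ, of the CENP-O-P-Q-U-R complex, were below the filter. CENPQ (chromosome 6, 49463370 to 49493107) had 11, 6 and 7 counts in LNCaP DMSO and 4, 5 and 11 in LNCaP SEL120-34A, against 24, 10 and 18 in 22Rv1 DMSO and 8, 4 and 6 in 22Rv1 SEL120-34A. The treated libraries of 22Rv1 were shallower, and on the CPM scale the arms overlapped in both lines. In LNCaP they were 9.79 to 15.71 (DMSO) and 13.55 to 23.23 CPM (SEL120-34A). In 22Rv1 they were 18.72 to 47.12 (DMSO) and 17.11 to 22.05 CPM (SEL120-34A). CENPP (chromosome 9, 92325953 to 92620529) had between 1 and 15 counts in each of the 12 LNCaP and 22Rv1 libraries. The 3′ end of CENPP overlaps exons of IPPK on the opposite strand by 3720 bases, and use of strand in the counting was not stated, so its counts are uncertain.

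Over the list, 6 of the 10 genes passed the filter on low counts. In LNCaP, 3 of these 6 (CENPN, CENPH, CENPX) were lower in every treated library than in every control, and 10.7% of the 7086 genes tested were so. In 22Rv1, 2 of 6 (CENPX, CENPW) were higher without overlap against 12.4% of genes, and 1 (CENPH) was lower against 10.5%. Since the list was chosen on these contrasts, nothing is read from its counts, and none of its values under the inhibitor is given as passing a test. The median log2 change of the 6 was -0.55 in LNCaP and 0.39 in 22Rv1, beside 8e-04 and 0.0025 over all genes. The summed level of the 10 genes was 501.9 to 620.5 CPM in LNCaP DMSO and 365.9 to 397 in LNCaP SEL120-34A, while the 22Rv1 controls summed to 554 to 622.6 CPM and the treated 22Rv1 libraries to 638.9 to 702.8 CPM.

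**Figure D3:**
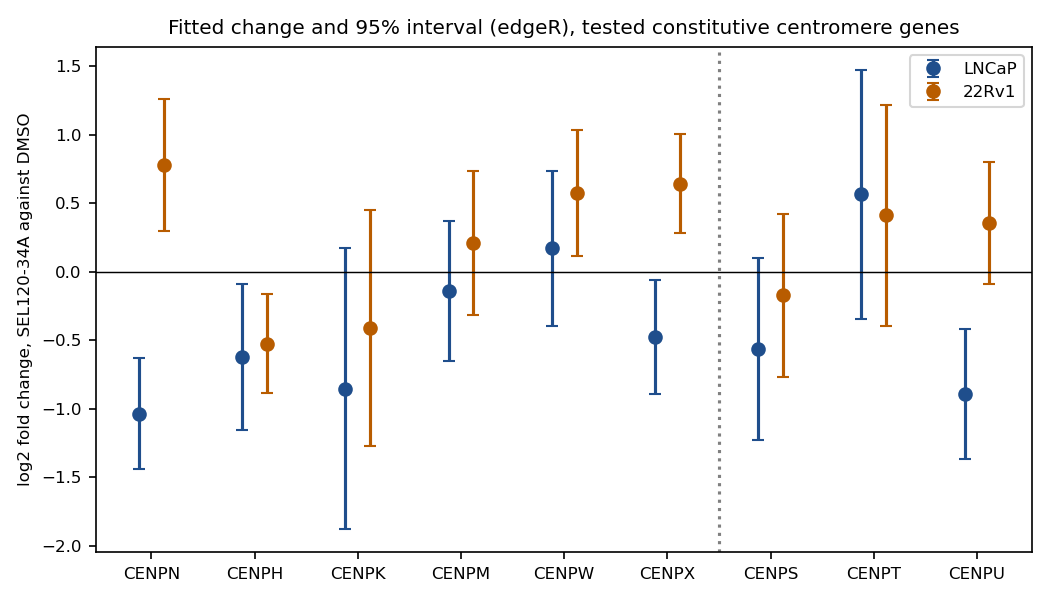
Fitted log2 fold change, SEL120-34A against DMSO, with 95% intervals from edgeR, in LNCaP (blue) and 22Rv1 (orange). Left of the dotted line are the 6 genes of the list that could be fitted, right of it the other measured genes of the network. CENPN (-1.04 and 0.78) and CENPX (-0.48 and 0.64) lie on opposite sides of 0 in the 2 lines, and CENPH (-0.62 and -0.53) on the same side.

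To determine how untreated cells of the 2 lines differ in the list, 22Rv1 DMSO was compared with LNCaP DMSO. CENPH was 3.22-fold higher in 22Rv1 (190.8 ± 26.97 against 58.9 ± 5.25 CPM, SD, n = 3; log2 difference 1.69 ± 0.18 SE, adjusted p = 3.63e-10 by edgeR over all genes), and the call held under all 19 alternatives. CENPW was 1.62-fold higher (61.9 ± 9.59 against 39.6 ± 6.91 CPM; 0.70 ± 0.24, adjusted p = 0.0135). The CENPW call was lost in 4 of 19 alternatives (adjusted p from 0.00188 to 0.82 over them), among them without LNCaP DMSO replicate 3 or 22Rv1 DMSO replicate 3 (0.0725 and 0.0761). CENPM (-0.24 ± 0.23, adjusted p = 0.401), CENPK (0.49 ± 0.37, adjusted p = 0.283) and CENPX (0.05 ± 0.18, adjusted p = 0.823; 95% interval -0.30 to 0.41) did not pass. The lines differed at many genes, with 49.0% of those tested past the threshold. CENPN, lower in 22Rv1, and CENPH, higher in 22Rv1, thus stood in opposite order between the untreated lines.

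To examine whether the genes beside the members moved with them, 2 protein-coding genes that overlap the exons of CENPN and CENPX on the opposite strand, away from their 3′ ends, were taken from GENCODE release 44. They were chosen from the annotation after the members' values were known. CMC2 (chromosome 16, 80966448 to 81020270, minus strand), a mitochondrial protein of cytochrome c oxidase assembly, is transcribed in the opposite direction. The main (MANE) transcripts of the pair start 329 bases apart, that of CMC2 lying upstream of that of CENPN, while longer annotated transcripts of the 2 genes overlap. In LNCaP, CMC2 had 71.3 to 88.7 CPM in DMSO and 50.7 to 67.6 CPM in SEL120-34A (63, 30 and 51 against 13, 22 and 32 counts). In 22Rv1 it had 43.2 to 48.9 CPM in DMSO and 77.2 to 107.3 CPM in SEL120-34A (22, 25 and 41 against 28, 25 and 34 counts). The arms overlapped in neither line, and the directions were those of CENPN.

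By edgeR over all genes, CMC2 rose in 22Rv1 with SEL120-34A (log2 change 1.00 ± 0.23 SE, adjusted p = 0.00578), while its LNCaP change did not pass (-0.36 ± 0.23, adjusted p = 0.51). The difference between lines passed (-1.36 ± 0.32, adjusted p = 0.0328), and untreated 22Rv1 was lower than untreated LNCaP (-0.77 ± 0.21, adjusted p = 0.0028). The call on the difference was lost in 12 of 18 alternatives (adjusted p from 0.0206 to 0.568 over them). Of these, 8 left out 1 library: it was lost when any of 8 of the 12 libraries was left out (adjusted p 0.0551 to 0.109), the 4 without this effect being LNCaP DMSO replicates 2 and 3, LNCaP SEL120-34A replicate 3 and 22Rv1 SEL120-34A replicate 1. At equal depth in all libraries the 22Rv1 change was 0.76 and did not pass (adjusted p = 0.314), nor did the difference between untreated lines (-0.47, adjusted p = 0.335). CENPN and CMC2 share 240 exon bases, but none of them lies in the last 500 bases of the main transcript of either gene, where the 3′ tags are read. Another gene does overlap the last 500 bases of CENPN. It is ENSG00000261061, a long non-coding RNA gene on the same strand, which shares 716 exon bases with CENPN. It had 0 counts, and how tags that fit both genes were assigned was not stated.

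At the neighbour of CENPX no change with the inhibitor passed the test. LRRC45, a centrosome protein gene on the opposite strand whose main transcript starts 427 bases upstream of that of CENPX, did not pass in either line (-0.07 ± 0.31 SE in LNCaP, adjusted p = 0.963; 0.21 ± 0.31 in 22Rv1, adjusted p = 0.786), and its difference between lines was -0.27 ± 0.44.

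Genes were then ranked by how closely their log2 CPM followed CENPN over the 12 LNCaP and 22Rv1 libraries, after the mean of each line was removed, among 3885 genes with a mean of at least 20 counts. The closest were ACTG1 (Pearson r = 0.92), SPDEF (0.92), RPL24 (0.90), an unnamed gene (ENSG00000197149, 0.89) and CENPU (0.87). The size of a change does not enter r. ACTG1 changed by only -0.14 ± 0.12 (SE, log2) in LNCaP and 0.13 ± 0.11 in 22Rv1, and RPL24 by -0.17 ± 0.12 and 0.22 ± 0.12. The changes were -0.76 ± 0.25 and 0.98 ± 0.32 for SPDEF, and -0.39 ± 0.21 and 0.59 ± 0.23 for the unnamed gene. ACTG1 encodes cytoplasmic gamma-actin, SPDEF a transcription factor of luminal prostate cells, RPL24 a ribosomal protein, and CENPU a subunit of the CENP-O-P-Q-U-R complex. Among the members, r with CENPN was 0.65 for CENPX, 0.34 for CENPK, 0.28 for CENPW, 0.27 for CENPH and 0.03 for CENPM. For CENPH this combined 0.93 within LNCaP with -0.42 within 22Rv1 (6 libraries each). These libraries share the 2 treatments and unequal depth, and r is given as a description only.

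The rest of the constitutive network showed 1 change. CENPU fell in LNCaP, from 73.3 to 96.5 CPM in DMSO to 38.0 to 57.0 CPM in SEL120-34A (log2 change -0.89 ± 0.24 SE, adjusted p = 0.0269). In 22Rv1 the CENPU values were 61.8 to 78.5 CPM in DMSO and 82.7 to 99.2 CPM in SEL120-34A, with no overlap in the other direction, but the change did not pass (0.36 ± 0.22, adjusted p = 0.407). Its difference between lines was -1.25 ± 0.33 (adjusted p = 0.0557). The LNCaP call was lost in 7 of 20 alternatives (adjusted p from 0.0159 to 0.856 over them), 4 of which left out LNCaP DMSO replicate 1 or 3 or LNCaP SEL120-34A replicate 1 or 2 (0.088 to 0.21). CENPS, the partner of CENP-X, had log2 changes of -0.56 ± 0.33 in LNCaP (adjusted p = 0.476) and -0.17 ± 0.29 in 22Rv1 (adjusted p = 0.816). CENPT, the partner of CENP-W, had 0.57 ± 0.45 (adjusted p = 0.636) and 0.41 ± 0.40 (adjusted p = 0.637). CENPC, CENPO and ITGB3BP, which encodes CENP-R, were below the filter.

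A wider list of 46 centromere and kinetochore genes, CENPU, CENPS and CENPT among them, was read beside the members, and 33 of it were tested. In LNCaP, 3 of the 33 fell and 0 rose by edgeR, against 0.776% and 1.99% of all genes tested, or 2.77% in either direction: ZWINT, a kinetochore scaffold protein that recruits the checkpoint (-0.89 ± 0.18 SE, adjusted p = 0.00265), BIRC5, which encodes the chromosomal passenger survivin (-0.65 ± 0.17, adjusted p = 0.0229), and CENPU. A negative sign was seen for 28 of 33, against 49.5% of all genes, and the median was -0.41. Of the 33, 12 were lower in all treated than in all control libraries, against 10.7% of all genes. In 22Rv1, 1 of 33 fell and 0 rose, against 1.55% and 4.15% of all genes, or 5.70% in either direction. It was the mitotic kinase gene PLK1 (-0.73 ± 0.22, adjusted p = 0.042). The median was -0.17, and 19 had a negative sign, against 49.6% of all genes. Without overlap between the 22Rv1 arms, 2 of the 33 were higher and 4 lower, against 12.4% and 10.5% of all genes. None of the 33 passed for the difference between lines, where 811 of all genes (11.4%) had an unadjusted p under 0.05 and 52 (0.734%) passed.

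These calls rest on few libraries. The ZWINT call ended when LNCaP DMSO replicate 3 was left out (adjusted p = 0.0541), that of BIRC5 without LNCaP DMSO replicate 1 or 3 or LNCaP SEL120-34A replicate 1 or 2 (0.088 to 0.189), and that of PLK1 without LNCaP DMSO replicate 2, 22Rv1 DMSO replicate 1 or 3 or 22Rv1 SEL120-34A replicate 1 or 2 (0.0512 to 0.307).

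**Figure D4:**
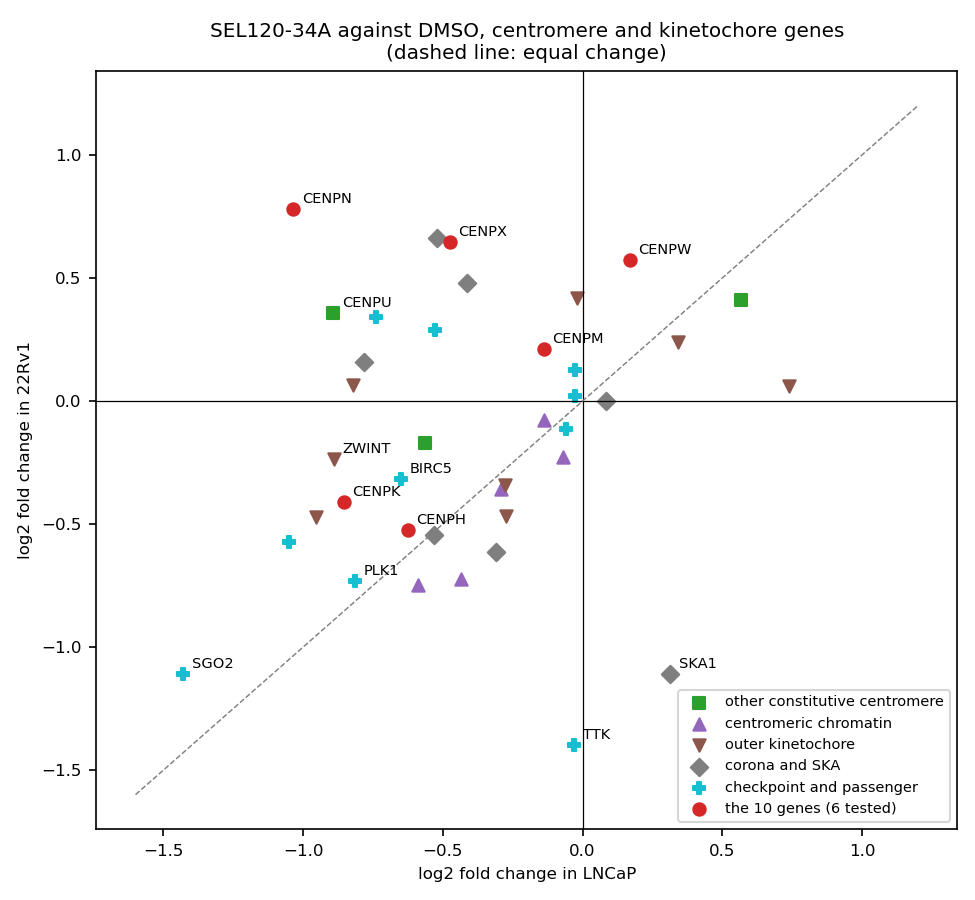
Log2 fold change with SEL120-34A in LNCaP (x axis) and 22Rv1 (y axis) for the 6 fitted genes of the list (red circles) and the 33 tested genes of the wider list, by functional group. The dashed line marks equal change. CENPN lies at -1.04 and 0.78, and 28 of the 33 genes of the wider list lie left of 0.

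By function, the 5 tested genes of centromeric chromatin (CENP-A, its loading factors and CENP-B) had median changes of -0.29 in LNCaP and -0.36 in 22Rv1, and none passed. The 8 of the outer kinetochore had medians of -0.28 and -0.09, with ZWINT passing in LNCaP. The 7 of the corona and SKA complexes had -0.41 and 0.00, with none passing. The 10 of the checkpoint and passenger group had -0.59 and -0.21, with BIRC5 passing in LNCaP and PLK1 in 22Rv1. In untreated cells, 12 of the 33 were higher in 22Rv1 than in LNCaP and 2 were lower, against 25.0% and 24.0% of all genes. Of these 14, 6 (CENPF, KNTC1, MIS12, SGO2, SKA1 and TTK) had no library at the filter level of 22.5 CPM in the lower of the 2 groups, so they entered the test through libraries in which they were high, and the count of 14 supports nothing by itself. The 14 included SKA1, of the microtubule-binding SKA complex (33.9 ± 9.05 against 6.83 ± 1.12 CPM, SD, n = 3; log2 difference 2.33, adjusted p = 1.51e-05), which reached the filter in the 3 22Rv1 DMSO libraries and 1 treated 22Rv1 library. Others were MIS18A, which licenses CENP-A loading (1.81, adjusted p = 1.47e-06), and DSN1, of the MIS12 complex (1.28, adjusted p = 0.000218). MIS18A reached the filter in 1 LNCaP DMSO library, 0 treated LNCaP libraries and all 3 libraries of each 22Rv1 arm. MIS18A thus also entered the test through the line in which it was high. DSN1 reached the filter in 2 LNCaP DMSO libraries, 1 treated LNCaP library and all 3 libraries of each 22Rv1 arm. SGO2, a protector of centromeric cohesion, was lower in 22Rv1 (9.12 ± 3.21 against 30.6 ± 3.69 CPM; -1.66, adjusted p = 0.000444), and the 3 LNCaP DMSO libraries were the only ones in which it reached the filter.

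Genes of the cell cycle were read in the same libraries. Of 15 proliferation genes tested, 14 had a negative sign in LNCaP, against 49.5% of all genes, and the median was -0.36. Of the 15, 1 passed, against 0.776% of all genes in that direction, RRM2, the small subunit of ribonucleotide reductase (-1.19, adjusted p = 0.000162). Their summed level was 2178 to 2346 CPM in LNCaP DMSO and 1446 to 1913 CPM in LNCaP SEL120-34A. In 22Rv1, 9 of the 15 had a negative sign, against 49.6% of all genes, 6 had a positive one, and the median was -0.03. The 2 that passed were lower, against 1.55% of all genes in that direction, and were the replication helicase gene MCM4 (-0.95, adjusted p = 0.00181) and the proliferation marker MKI67 (-1.39, adjusted p = 0.0464). MKI67 reached the filter in the 3 22Rv1 DMSO libraries and in no other, so it entered the test through the group in which it was high. TYMS (0.21, adjusted p = 0.395) and MCM5 (0.28, adjusted p = 0.451) were higher in every treated 22Rv1 library than in every control without passing. They were the 2 of the 15 that did so, against 12.4% of all genes. Lower without overlap were 4 of the 15, MCM4 and MKI67 among them, against 10.5% of all genes. PCNA, the replication clamp, was at 0.35 (adjusted p = 0.169). The summed level in 22Rv1 was 2821 to 3074 CPM in DMSO and 2601 to 2797 CPM in SEL120-34A. In PC3 the sum was 2130 and 2190 CPM. The cell cycle sum was thus lower with SEL120-34A in both LNCaP and 22Rv1, without overlap, while the means of CENPN, CENPX and CENPW were higher in 22Rv1. Abundant genes weigh most in such a sum. In 22Rv1 the means of MCM7 (554.6 to 437.9 CPM) and MCM4 (263.8 to 129.7 CPM) were lower, and those of PCNA (352.6 to 446.8 CPM) and TYMS (493.8 to 566.6 CPM) higher. The 22Rv1 sum therefore does not show that the 15 genes fell as a group. The part of the cell cycle genes in the values of the members was not tested. In bulk RNA, fewer cells in a phase and less RNA per cell cannot be told apart.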

How the data were processed

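BRB-seq, which barcodes each sample before pooling and reads transcript 3′ ends, gave 14 libraries. The authors' methods and the labels give STARsolo for alignment and counting of the reads on GRCh38.p13, and raw counts were deposited for 62703 genes. Whether molecular identifiers were collapsed was not stated, so counting intervals and floors (3 counts) cover counting error only. A second deposited table, of log2 CPM values for 9638 genes, was given back by edgeR's filter, TMM factors and a prior count of 2 to within 4.97e-14 and was used for 1 alternative. Total counts were 246063 to 909176 per library. No replicate pair was a duplicate (chi-square per degree of freedom 1.43 to 3.02).

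Groups came from the sample labels. Counts of the 12 LNCaP and 22Rv1 libraries were fitted in edgeR 4.0.16 (R 4.3.3) with 4 group means, TMM, filterByExpr (leaving 7086 genes) and a quasi-likelihood F-test with 8 residual degrees of freedom. The common biological coefficient of variation was 11.1%. P-values were Benjamini-Hochberg adjusted over all 7086 genes, with a threshold of 0.05, and 95% intervals are unadjusted. CPM used TMM factors over all 14 libraries. PC3 ratios carry exact 95% counting intervals.

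The members, the gene lists and the rules were chosen with earlier results of these data known. Named genes were all members, the other measured subunits of the network, genes of the wider list past the threshold under the inhibitor, the leading differences of that list between untreated lines, the 5 genes most like CENPN, and the cell cycle genes past the threshold. The neighbouring genes were added afterwards from the annotation, and some marker and neighbour genes are not reported here. Coordinates are those of GENCODE release 44 on GRCh38, and promoters those of RefSeq on GRCh38.p14.

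Alternatives were a replicate block, the DESeq2 1.42.0 Wald test, its size factors in edgeR, no filter, each line alone, equal depth, limma-trend (limma 3.58.1) on the deposited log2 values, each library left out, and library totals without TMM, the last added after the data were seen. The edgeR model was tested on simulated data.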

Additional observations from a re-analysis of the deposited data

Results flagged for a closer look

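At 3 genes of the constitutive network the fitted changes with SEL120-34A were flagged for differing between LNCaP and 22Rv1, with opposite signs. CENPM also had opposite signs (-0.14 in LNCaP and 0.21 in 22Rv1), but its arms overlapped in both lines and it was not flagged. None of the 3 differences is given as passing a test, and the CENPN arms overlapped in 22Rv1. CENPN differed by -1.81 on the log2 scale (LNCaP minus 22Rv1); it was chosen for this difference, which is given without a test. For CENPX every treated library was lower than every control in LNCaP and higher in 22Rv1, a difference of -1.12, likewise given as a description. For CENPU the libraries separated in the same opposite way, with a difference of -1.25 that did not pass the threshold (adjusted p = 0.0557 by edgeR).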

How the results depend on the processing

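The LNCaP comparison called 196 genes, 22Rv1 404, the difference between lines 52 and the untreated lines 3473, and the wider list held 3, 1, 0 and 14 of these. Without the low-count filter, 22Rv1 had 260 calls and 0 in the wider list. The DESeq2 Wald test called 101 genes in LNCaP and 255 in 22Rv1, and 0 (22Rv1) and 8 (untreated) of the wider list. At equal depth, where all libraries were thinned to the smallest total, the calls were 36, 110, 6 and 1615, with 1 (LNCaP), 0 (22Rv1) and 1 (untreated) in the wider list; fewer counts entered those tests. Limma-trend called 41, 201 and 5 genes, and 0 (LNCaP), 0 (22Rv1) and 9 (untreated) of the wider list. The cause of these differences in calls was not tested. Leaving out 1 library gave 87 to 239 calls in LNCaP, 158 to 446 in 22Rv1, 24 to 57 for the difference and 3038 to 3723 for the untreated lines, and 0 to 4, 0 to 1, 0 to 1 and 9 to 14 in the wider list.

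With library totals in place of TMM (189, 375, 41 and 3573 calls), the median of all genes moved to -0.08 in LNCaP, -0.14 in 22Rv1 and 0.24 between untreated lines, and the split of higher against lower calls moved from 141 and 55 to 99 and 90 in LNCaP, from 294 and 110 to 144 and 231 in 22Rv1, and from 1772 and 1701 to 2362 and 1211 between untreated lines. The signs of CENPN, CENPX and CENPH under the inhibitor did not change there.

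Over the alternatives run, the CENPN change was -1.38 to -0.93 in LNCaP and 0.57 to 1.04 in 22Rv1, and its difference -2.42 to -1.62. At equal depth CENPM in LNCaP was 0.50, against -0.14 at full depth, and CENPW in 22Rv1 was 1.17. DESeq2 gave no adjusted p for the CMC2 difference. Whether replicate numbers pair the samples was not settled, as 6 correlations are too few to decide. Same-numbered libraries correlated at -0.02 to 0.20 over 6 pairs, and 3 of 6 correlated best with their own number. In LNCaP, replicates 1 and 3 had 0.17 and 0.20 with their own number, against -0.24 and -0.14 with each other's. In 22Rv1 same-numbered libraries correlated at -0.02 to 0.04. The replicate block gave 240, 450, 68 and 3507 calls, against 196, 404, 52 and 3473 without it. Of the wider list, 3, 1, 0 and 14 were called with the block. Low counts limit CENPL, CENPI, CENPP and CENPQ, which were not tested, and CENPK.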
